A study of Mus musculus with 8 samples.

Results

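Chemokines are small secreted proteins that direct migrating cells along gradients, and they act through G protein-coupled receptors on leukocytes. CC, CXC and CX3C ligands are named after the spacing of their conserved cysteines, and most receptors bind several ligands of a class. Atypical receptors bind chemokines without signalling through G proteins and remove them from the tissue. In squamous mucosa keratinocytes, fibroblasts, endothelium and resident macrophages are known sources of ligands, and the eotaxins, which attract eosinophils, are known from eosinophilic disease of the esophagus.

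The group described here comprised 49 genes, 30 ligands, 15 signalling receptors and 4 atypical receptors, named by symbol and found in the count tables among 49315 gene identifiers. RNA was sequenced from whole esophagus of wild-type mice (WT in the labels) that drank 0.5% sodium dodecyl sulfate (SDS), an anionic detergent, in their water for 14 days (3 libraries), or untreated water to the same day (5 libraries). Strain, sex and age are not in the labels, and neither is how many animals gave the libraries; p-values therefore cover the spread between libraries, which may be technical. Total counts were 24682611, 26669024 and 25344951 in SDS libraries 1, 2 and 3 and ranged from 22033866 to 29802362 in the controls.

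SDS library 3 stood apart from SDS libraries 1 and 2 for many of these genes, as the values below show. It was the lowest SDS library for 29 of the 36 members tested, and in 29 of the 36 it lay at or below the highest control. A gene with no change would also mostly lie at or below the highest of several controls. The second count therefore does not by itself set SDS library 3 apart. The shares over all genes were not counted, so whether either count is particular to these members was not tested. Values without SDS library 3 are given beside those with all libraries. It was singled out for being low in these same genes, so higher calls without it follow in part from that choice, and they are a description and no support. The tissue label matched the squamous keratins: Krt13 measured 41997, 44538 and 71974 CPM (counts scaled to a common library size) in the SDS libraries and from 19388 to 62960 CPM in the controls. Control library 4 had the lowest Krt13 and the highest adipocyte markers, at a summed 3353 CPM over 6 genes. Library sizes were adjusted by trimmed means (TMM). In whole tissue, fewer cells of a type and less RNA per cell cannot be told apart.

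Of the 49 members, 36 passed the filter on low counts, and 13 did not. With edgeR's quasi-likelihood test, adjusted by Benjamini-Hochberg over all genes to a threshold of 0.05, 0 of the 36 passed, against 0.623% of all 17179 genes tested called higher in SDS and 0.425% called lower. At an unadjusted p under 0.05 there were 12 of the 36 with higher estimates in SDS (33.3%, against 9.98% of all genes tested) and 0 with lower ones (8.53% of all genes). DESeq2 called 9 members higher and 0 lower, against 5.00% and 4.37% of all genes; the 9 were Ccl8, Ccl6, Ccl9, Ccr1, Ccl22, Cxcl16, Cxcr6, Ccr7 and Cxcr4. Limma-voom called 0 (0.390% and 0.320% of all genes), and with sample quality weights it called 10 higher, those 9 and Ccl5, and 1 lower, Ccl24 (6.58% and 4.76% of all genes). The estimate was at least 2-fold higher in SDS for 15 members (41.7%, against 4.92% of all genes) and at least 2-fold lower for 0 (2.50% of all genes). The group ranges did not overlap for 3 members, all higher in SDS (8.33%, against 6.49% of all genes and 6.89% lower), which is close to the background. Of the 36, 7 reached the filter level only with the help of SDS libraries (Cxcl1, Cxcl2, Ccl4, Ccl5, Ccl22, Cxcr6 and Ccr7). Of these, Ccl5, Ccl22, Cxcr6 and Ccr7 are among the 12 with an unadjusted p under 0.05. They, Cxcl2 and Ccl4 are also among the 15 at least 2-fold higher. Genes that enter through high SDS values raise the higher shares, so these counts and the median describe the tested members and not all 49. The median log2 fold change of the 36 was 0.72, against -0.005 over all genes.

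Without SDS library 3 the same test called 14 of 40 members higher (35%, against 4.98% of all genes tested) and 0 lower (1.94% of all genes); nothing is read from this share, since the members' own values chose the library left out. The 14 were Cxcl5, Ccl8, Ccl6, Ccl9, Ccr1, Ccr2, Cx3cr1, Ccl22, Cxcl16, Cxcr6, Ccr6, Ccr7, Cxcr4 and Ackr1. Of the 40, 7 reached the filter level only with SDS libraries 1 and 2, and 4 of these are among the 14 (Cxcl5, Ccl22, Ccr6 and Ccr7). Leaving out any other single library gave 0 calls among the members. These fits called few genes at all, from 4 to 79 higher and from 0 to 43 lower of at least 16980 tested. The 0 is therefore close to the background and is no result about the members.

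**Figure D1:**
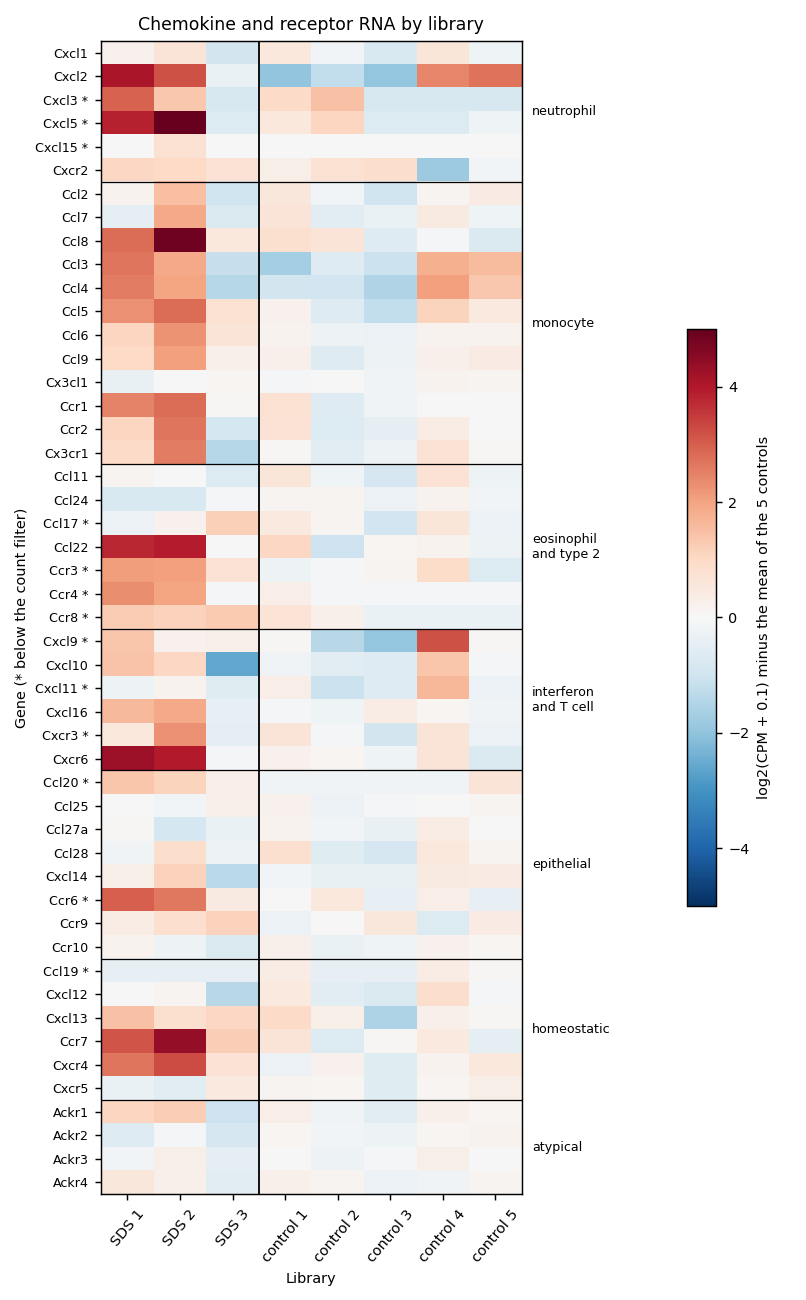
Heat map of the 49 genes in the 8 libraries, as log2(CPM + 0.1) minus the mean of the 5 controls, with colours ending at 5 in each direction; horizontal lines separate the groups of genes by role, and an asterisk marks genes below the count filter. SDS libraries 1 and 2 are red for many monocyte, T cell and homing receptor genes, SDS library 3 is close to the controls for most, and controls 4 and 5 share the high Cxcl2, Ccl3 and Ccl4 of SDS libraries 1 and 2.

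**Figure D2:**
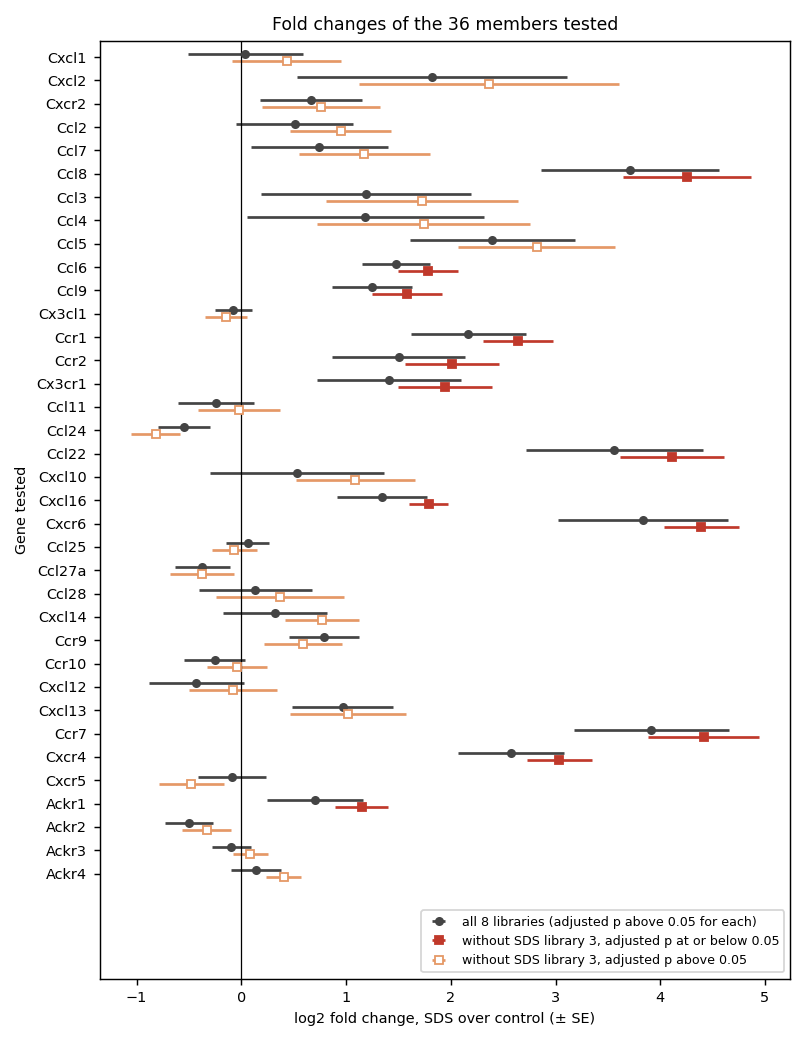
Log2 fold change of SDS over control (horizontal axis, bars are SE) for the 36 members tested, with all 8 libraries (circles) and without SDS library 3 (squares, filled where the adjusted p was at or below 0.05). With all libraries 0 of the 36 passed; Cxcl5, Ccr3, Cxcl9 and Ccr6, which entered the test only without SDS library 3, are not drawn.

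Levels between genes were compared per length, as TPM, counts per kilobase of the deposited gene length rescaled to a fixed total. Among the 30 ligands listed, the highest in control esophagus were Ccl6 at 76.7 ± 18.2, Ccl11 at 67.2 ± 33.9 and Ccl9 at 16.3 ± 5.54 TPM (SD, n = 5 each), followed by Cxcl12 at 9.91 ± 5.56 TPM. Ccl6 and Ccl11 lay within each other's spread. The SD ranges of Ccl9 and Cxcl12 overlapped, but Ccl9 was above Cxcl12 in each control library. Ccl9 measured 19.2, 9.08, 11.6, 20.3 and 21.2 TPM in control libraries 1 to 5, against 12.8, 5.54, 4.83, 18.1 and 8.25 TPM for Cxcl12. From Ccl24 (5.34 ± 1.06 TPM) down to Ccl4 (2.07 ± 2.65 TPM) the next ligands lay within a narrow range, and neighbours in the order did not differ beyond their spread. The highest of the 19 receptors were the atypical Ackr3 at 36.9 ± 7.87 and Ackr4 at 11.2 ± 2.03 TPM, with Ackr3 above all others by more than the spread. Among signalling receptors Cxcr2 (7.86 ± 3.82 TPM) and Ccr2 (7.64 ± 3.40 TPM) came first and did not differ beyond their spread. Pf4, a platelet chemokine outside that list, measured 36.1 ± 11.5 TPM in controls (SD, n = 5). In the SDS libraries Ccl6 had the highest mean, 215 ± 146 TPM (SD, n = 3), followed among listed ligands by Ccl11 at 55.7 ± 18.6 TPM and Ccl8 at 42.6 ± 52.0 TPM. These spreads overlapped, but Ccl6 was above Ccl11 and Ccl8 in each SDS library, at 160, 381 and 106 TPM in SDS libraries 1, 2 and 3.

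**Figure D3:**
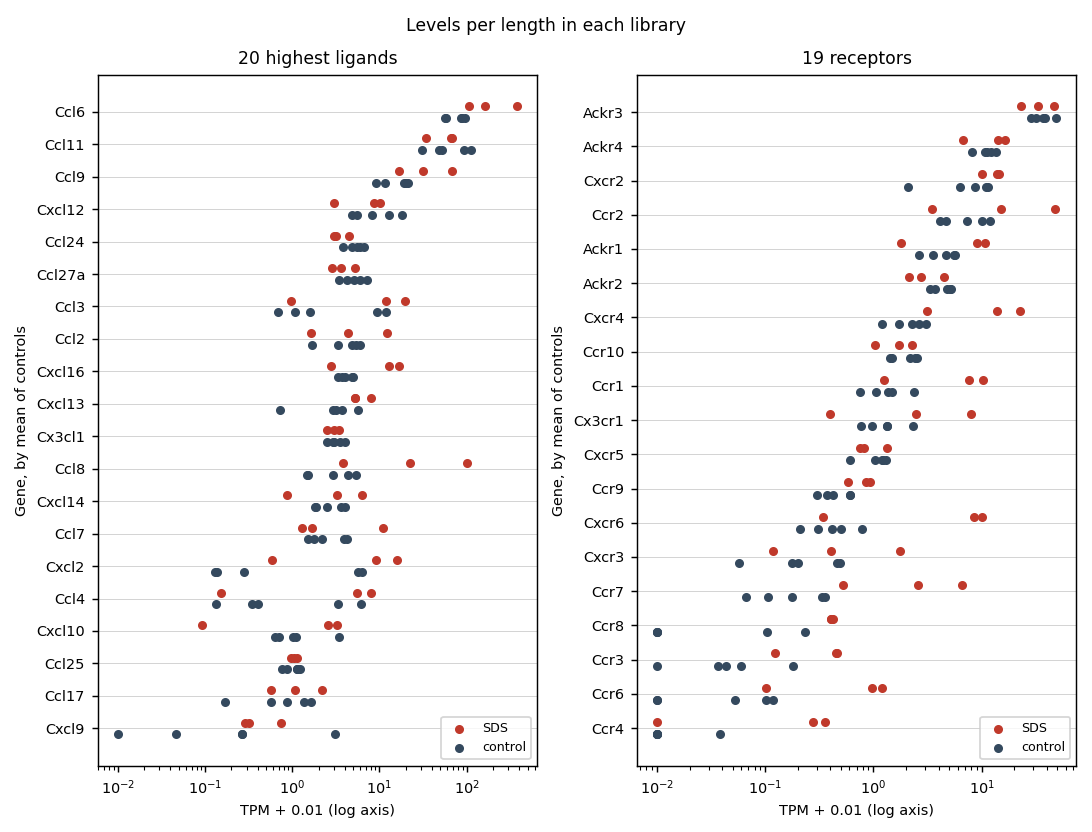
TPM plus 0.01 on a log axis for the 20 highest ligands (left) and the 19 receptors (right), with each SDS library as a red point above each control library as a dark point, ordered by the control mean. Ccl6, Ccl11 and Ackr3 are the highest in controls; in SDS libraries 1 and 2 Ccl8, Cxcr6 and Ccr7 lie beyond every control, while SDS library 3 lies inside the control range for Ccl8 and Cxcr6.

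The member ligands grouped here by a neutrophil role, among them ligands of the receptor Cxcr2, lie close together on chromosome 5 (mm10, chr5:90759360-90905938). Their order is Cxcl5, Cxcl3, Cxcl15, Cxcl1 and Cxcl2. Several of them are classical targets of NF-kB and of interleukin 17 signalling in epithelium. The 150 bases before the start sites of Cxcl1, Cxcl2 and Cxcl3 (RefSeq, GRCm38.p6, plus strand) are shown because these neighbours carry the same motif and yet had different counts; capitals mark matches to the degenerate NF-kB consensus on either strand, with overlapping matches merged.
Cxcl1 (chr5:90891095-90891244): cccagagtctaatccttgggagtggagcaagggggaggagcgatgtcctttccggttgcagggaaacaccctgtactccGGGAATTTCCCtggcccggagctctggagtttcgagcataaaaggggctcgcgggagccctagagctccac
Cxcl2 (chr5:90903749-90903898): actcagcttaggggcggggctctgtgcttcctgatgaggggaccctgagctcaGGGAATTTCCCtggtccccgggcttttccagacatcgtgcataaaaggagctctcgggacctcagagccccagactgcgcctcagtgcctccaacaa
Cxcl3 (chr5:90785951-90786100): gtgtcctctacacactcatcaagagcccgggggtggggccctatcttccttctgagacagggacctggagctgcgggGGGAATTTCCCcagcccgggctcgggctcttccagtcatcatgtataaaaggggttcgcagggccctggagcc

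Each of the 3 stretches held the same run of 11 bases, GGGAATTTCCC, in which a match on each strand overlaps. Counted from the start site, its first base was at position -71 in Cxcl1, -97 in Cxcl2 and -73 in Cxcl3. Over windows of 300 bases (250 before and 50 from the start site on), 10 of the 37 members with a sequence held a match, against 4.51% of 32851 promoters: Ackr2, Ccl20, Ccl27a, Ccl9, Ccr3, Ccr6, Cxcl1, Cxcl10, Cxcl2 and Cxcl3. The AP-1 letters TGANTCA, searched on both strands, were in the windows of 7 members, against 7.81% of all promoters. A match is a description of the letters and not of a bound site.

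Cxcl2 measured 13.4, 7.24 and 0.542 CPM in SDS libraries 1, 2 and 3, against 0.102, 0.241, 0.111, 4.29 and 5.19 CPM in control libraries 1 to 5. The highest were SDS libraries 1 and 2, then control libraries 4 and 5, so the groups overlapped. Its log2 fold change was 1.82 ± 1.29 (SE) and did not pass (edgeR adjusted p = 0.502). The estimate was 0.97 without SDS library 1, 2.55 without control 5 and 3.84 by limma-voom with quality weights. Cxcl1, which attracts neutrophils in mice as Cxcl2 does, was low in every library, with 10, 16 and 3 counts in SDS libraries 1, 2 and 3 and 15, 6, 4, 16 and 7 in control libraries 1 to 5. Its estimate was 0.04 ± 0.55 (SE). Cxcl3 had 32, 10 and 0 counts in SDS libraries 1, 2 and 3 and 7, 8, 0, 0 and 0 in control libraries 1 to 5, below the filter. Cxcl5, an epithelial neutrophil attractant, had 57, 168 and 0 counts in SDS libraries 1, 2 and 3 and 4, 5, 0, 0 and 1 in control libraries 1 to 5. Both SDS libraries 1 and 2 lay far above every control and SDS library 3 held none, which allows up to 3 counts or 0.125 CPM. Below the filter with all libraries, Cxcl5 passed without SDS library 3 (log2 5.66, adjusted p = 0.00938 by the edgeR quasi-likelihood test). The lung chemokine Cxcl15 had 0, 2 and 0 counts in SDS libraries 1, 2 and 3 and 0 in each control. Of every 50-base word in the Cxcl2 and Cxcl3 transcripts 5.84% and 4.24% also occurred in other genes, so the reads of these genes were largely distinct.

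Cxcr2, a neutrophil receptor for ligands of this cluster, measured 17.3, 16.7 and 13.9 CPM in SDS libraries 1, 2 and 3, against 10.4, 14.4, 15.5, 2.30 and 7.63 CPM in control libraries 1 to 5. It was present in all libraries and lowest in control 4, the library with the lowest Krt13, and the groups overlapped (log2 0.67 ± 0.49 (SE), edgeR adjusted p = 0.515). The neutrophil receptor Csf3r measured 22.8, 45.4 and 0.542 CPM in SDS libraries 1, 2 and 3, against 0.614, 0.337, 0.665, 0.811 and 0.534 CPM in control libraries 1 to 5. In the controls Cxcr2 thus lay between 2.30 and 15.5 CPM where Csf3r lay below 1 CPM, and SDS library 3 had 13.9 CPM of Cxcr2 beside 0.542 CPM of Csf3r. Cxcr1, the other receptor of this class, gave 2, 3 and 0 counts in SDS libraries 1, 2 and 3 and 0 in each control. Of the other neutrophil markers Il1r2, which other cells also express, measured 33.7, 30.6 and 65.7 CPM in SDS libraries 1, 2 and 3, against 59.3, 78.9, 64.8, 40.2 and 74.4 CPM in control libraries 1 to 5. It was lower in SDS libraries 1 and 2 than in every control, and it made up most of the sum in control libraries 1, 2, 3 and 5. The summed level of all 10 neutrophil markers was 6154, 5837 and 266 CPM in SDS libraries 1, 2 and 3 and ranged from 95.2 to 116 CPM in controls. S100a8 and S100a9, which keratinocytes also express, made up most of that sum in SDS libraries 1 and 2, and the granulocyte antigen Ly6g had 1, 3 and 0 counts in SDS libraries 1, 2 and 3 and 0 in each control. The part of these cells in the ligand and receptor values was not tested.

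**Figure D4:**
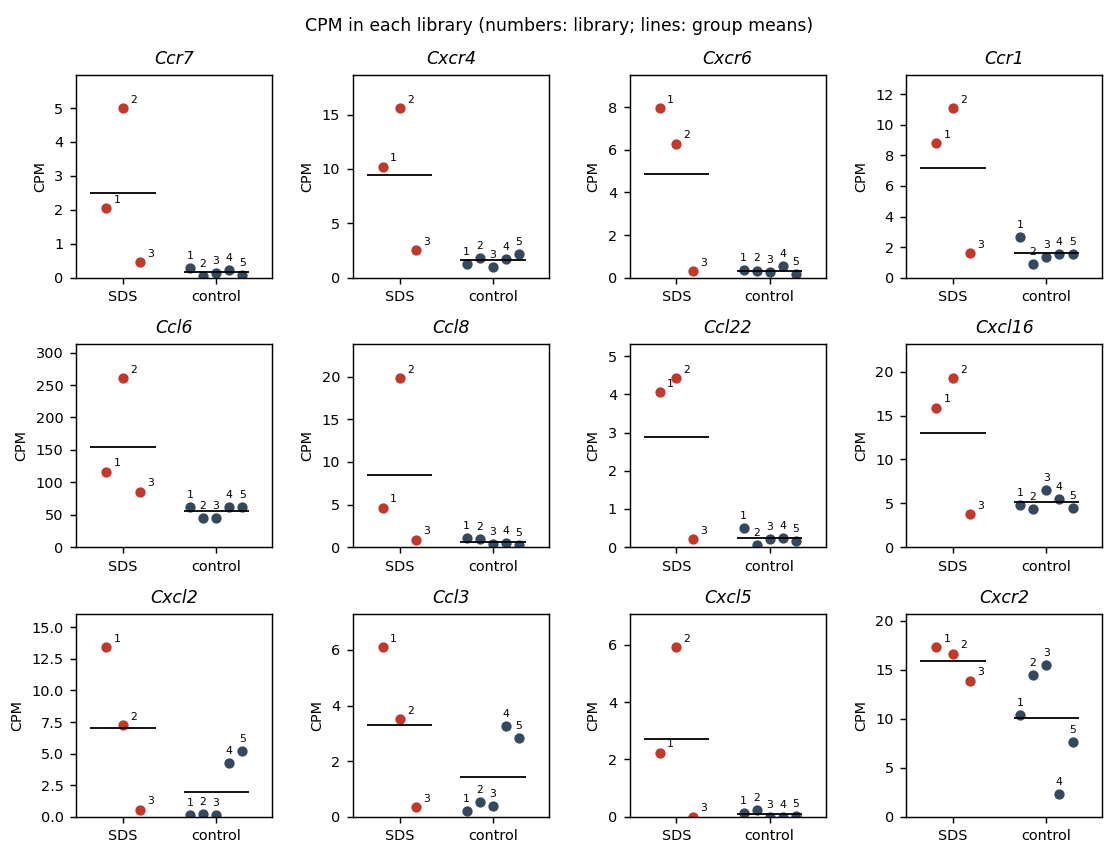
CPM of 12 members in each library on a linear axis from 0, SDS left of control in each panel, with the library number beside each point and the group mean as a line. SDS libraries 1 and 2 lie above every control for the receptors Ccr7, Cxcr4, Cxcr6 and Ccr1, and SDS library 3 lies above them for Ccr7, Cxcr4 and Ccl6 and below them for Cxcl16; for Cxcl2 and Ccl3 controls 4 and 5 lie near SDS library 2.

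Among ligands of monocytes and macrophages, Ccl6 and Ccl9, neighbouring genes on chromosome 11 whose products act on Ccr1 in rodents, had the highest TPM of the controls. Ccl6 (ENSMUSG00000018927, chr11:83587882-83593087, minus strand) measured 117, 261 and 85.3 CPM in SDS libraries 1, 2 and 3, against 61.4, 45.5, 45.2, 62.1 and 62.5 CPM in control libraries 1 to 5. Every SDS library lay above every control, with SDS library 2 the highest. The log2 fold change was 1.48 ± 0.32 (SE), and it did not pass (edgeR quasi-likelihood adjusted p = 0.0678); leaving out SDS library 3, it did pass (log2 1.78, adjusted p = 0.0129). Ccl9 (chr11:83572919-83578636, minus strand) measured 38.5, 79.8 and 22.9 CPM in SDS libraries 1, 2 and 3, against 23.1, 12.04, 15.8, 22.5 and 25.7 CPM in control libraries 1 to 5. All controls were below SDS libraries 1 and 2, while SDS library 3 was within their range (log2 1.25 ± 0.38 (SE), edgeR adjusted p = 0.138; without SDS library 3 log2 1.59, adjusted p = 0.0330). Their receptor Ccr1, carried by monocytes and neutrophils, measured 8.80, 11.1 and 1.58 CPM in SDS libraries 1, 2 and 3, against 2.63, 0.915, 1.33, 1.52 and 1.53 CPM in control libraries 1 to 5. Among the SDS libraries Ccr1 followed the order of both ligands. Unlike Ccl6, it was above every control in SDS libraries 1 and 2 only. Without SDS library 2 the estimates of Ccl6 and Ccl9 were 0.87 and 0.63. With all libraries that of Ccr1 did not pass (log2 2.17 ± 0.55 (SE), edgeR adjusted p = 0.0926; without SDS library 3 log2 2.65, adjusted p = 0.00586).

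Ccl8, a ligand of Ccr8 in mice and one of a cluster of 4 members on chromosome 11 (chr11:82035571-82116799), measured 4.64, 19.9 and 0.876 CPM in SDS libraries 1, 2 and 3, against 1.09, 0.963, 0.332, 0.541 and 0.305 CPM in control libraries 1 to 5. SDS library 2 was far above the rest, SDS library 1 came next, and SDS library 3 lay below the highest control. The log2 fold change of 3.71 ± 0.85 (SE) did not pass (edgeR adjusted p = 0.0749), and without SDS library 3 it was 4.26 with an adjusted p of 0.00953. Without SDS library 2 it was 2.09. Its cluster neighbours Ccl2 and Ccl7, which attract monocytes through Ccr2, had smaller estimates. Ccl2 measured 2.00, 5.31 and 0.834 CPM in SDS libraries 1, 2 and 3, against 2.66, 1.64, 0.849, 1.99 and 2.40 CPM in control libraries 1 to 5, and Ccl7 measured 0.550, 3.34 and 0.459 CPM in SDS libraries 1, 2 and 3, against 1.33, 0.530, 0.628, 1.149 and 0.686 CPM in control libraries 1 to 5. For both only SDS library 2 exceeded the controls, and the estimates of 0.51 and 0.74 (log2) became -0.43 and -0.78 without that library. The receptor Ccr2, the entry receptor of inflammatory monocytes, measured 41.1, 124 and 10.5 CPM in SDS libraries 1, 2 and 3, against 31.9, 12.1, 14.3, 24.9 and 19.7 CPM in control libraries 1 to 5. SDS library 2 held 3520 counts, and SDS library 3 was the lowest of all 8 (log2 1.505 ± 0.63 (SE), edgeR adjusted p = 0.252; without SDS library 3 log2 2.01, adjusted p = 0.0392). Without SDS library 2 the Ccr2 estimate was 0.33. Cx3cr1, the fractalkine receptor of monocytes and tissue macrophages, measured 4.48, 13.8 and 0.792 CPM in SDS libraries 1, 2 and 3, against 2.36, 1.49, 1.92, 3.82 and 2.36 CPM in control libraries 1 to 5. SDS library 2 was again the highest and SDS library 3 the lowest (log2 1.41 ± 0.69 (SE), edgeR adjusted p = 0.319; without SDS library 3 log2 1.95, adjusted p = 0.0432). Without SDS library 2 the Cx3cr1 estimate was 0.14. Its ligand Cx3cl1 measured 3.93, 5.17 and 5.34 CPM in SDS libraries 1, 2 and 3, against 4.68, 4.96, 4.43, 5.75 and 5.53 CPM in control libraries 1 to 5, with overlapping groups and a log2 fold change of -0.08 ± 0.18 (SE).

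Ccl3 and Ccl4, ligands made by activated macrophages and mast cells, lie next to each other on chromosome 11. Ccl3 measured 6.09, 3.51 and 0.334 CPM in SDS libraries 1, 2 and 3, against 0.205, 0.530, 0.369, 3.28 and 2.82 CPM in control libraries 1 to 5, and Ccl4 measured 2.16, 1.41 and 0.0417 CPM in SDS libraries 1, 2 and 3, against 0.102, 0.0963, 0.0369, 1.49 and 0.877 CPM in control libraries 1 to 5. For both genes SDS libraries 1 and 2 and control libraries 4 and 5 were high and the other 4 libraries low, so the groups overlapped (log2 1.19 ± 1.00 (SE) and 1.18 ± 1.13 (SE), edgeR adjusted p = 0.579 and 0.632). Without SDS library 1 the estimates were 0.42 and 0.47, without control 4 that of Ccl4 was 2.09, and with quality weights they were 2.40 and 2.63. Cxcl2 divided the libraries in the same way, and so did tumour necrosis factor Tnf, which measured 10.22, 5.24 and 0.209 CPM in SDS libraries 1, 2 and 3, against 0.375, 0.144, 0.222, 5.31 and 5.03 CPM in control libraries 1 to 5. Mast cell markers summed to 22.9, 10.8 and 8.18 CPM in the SDS libraries and 21.0, 2.65, 1.14, 58.3 and 11.5 CPM in control libraries 1 to 5. The part of mast cells in the Ccl3 and Ccl4 values was not tested. Ccl5, a T cell and macrophage ligand, had 26, 43 and 7 counts in SDS libraries 1, 2 and 3 and 5, 1, 0, 12 and 6 in control libraries 1 to 5. Again SDS libraries 1 and 2 were the highest and the groups overlapped (log2 2.40 ± 0.79 (SE), edgeR adjusted p = 0.155).

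Of the 12 monocyte and macrophage ligands and receptors, all tested, 11 had estimates above 0 (49.3% of all genes), 6 had an unadjusted p under 0.05 with a higher level in SDS (9.98% of all genes) and 0 passed the adjusted threshold. Ccl4 and Ccl5 reached the filter level only with the help of SDS libraries. Both are among the 11 and Ccl5 is among the 6, so these shares are raised by the way they entered. The summed level of 10 monocyte and macrophage markers was 861, 1690 and 464 CPM in SDS libraries 1, 2 and 3 and ranged from 342 to 548 CPM in the controls, and 0 of the 10 passed the test. Csf1r, the defining receptor of these cells, measured 88.3, 150.3 and 29.6 CPM in SDS libraries 1, 2 and 3, against 54.3, 38.4, 40.4, 61.5 and 53.5 CPM in control libraries 1 to 5, and Ly6c2 of inflammatory monocytes measured 1.18, 2.74 and 0.459 CPM in SDS libraries 1, 2 and 3, against 0.102, 0.0481, 0.0369, 0.845 and 0.305 CPM in control libraries 1 to 5. SDS library 2 was the highest for both, as it was for Ccl6, Ccl8, Ccl9, Ccr1, Ccr2 and Cx3cr1. The part of macrophage number in these values was not tested.

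The eotaxins, the ligands of the eosinophil receptor Ccr3, had estimates below 0, although that of Ccl11 was 0.12 under limma-voom with quality weights. Ccl11 (eotaxin, chr11:82057823-82062955) measured 29.4, 27.2 and 16.7 CPM in SDS libraries 1, 2 and 3, against 40.1, 22.9, 14.8, 44.0 and 22.2 CPM in control libraries 1 to 5. The groups overlapped, with the lowest and the highest value in the controls (log2 -0.24 ± 0.36 (SE), edgeR adjusted p = 0.780). Ccl24 (eotaxin 2) measured 1.57, 1.58 and 2.59 CPM in SDS libraries 1, 2 and 3, against 3.04, 3.08, 2.22, 3.11 and 2.52 CPM in control libraries 1 to 5. Only SDS library 3 lay within the control range, and the estimate was -0.55 ± 0.25 (SE) (edgeR adjusted p = 0.287); limma-voom with sample quality weights called it lower (log2 -0.75, adjusted p = 0.0379). Ccr3 itself was below the filter, with 15, 16 and 4 counts in SDS libraries 1, 2 and 3 and 1, 1, 2, 6 and 0 in control libraries 1 to 5. More counts lay in SDS libraries 1 and 2 than in any control, and without a filter the edgeR adjusted p was 0.142. The eosinophil granule gene Epx had 0 counts in each SDS library and 0, 0, 2, 2 and 0 in control libraries 1 to 5 and Prg2 had 2, 1 and 0 counts in SDS libraries 1, 2 and 3 and 1, 0, 1, 3 and 0 in control libraries 1 to 5. Siglecf, an eosinophil lectin also found on some macrophages, had 28, 41 and 0 counts in SDS libraries 1, 2 and 3 and 5, 2, 1, 3 and 2 in control libraries 1 to 5. Alox15, also in the eosinophil list, measured 14.8, 9.52 and 10.5 CPM in SDS libraries 1, 2 and 3, against 28.6, 32.5, 0.258, 3.62 and 0.229 CPM in control libraries 1 to 5.

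Of the ligands of Ccr4, a receptor of type 2 and regulatory T cells, Ccl22 was high in SDS libraries 1 and 2. Ccl22, a product of activated dendritic cells, had 103, 126 and 5 counts in SDS libraries 1, 2 and 3 and 15, 1, 6, 7 and 4 in control libraries 1 to 5. The log2 fold change was 3.56 ± 0.85 (SE) and did not pass (edgeR adjusted p = 0.080); it was 4.11 without SDS library 3, with an adjusted p of 0.00486. Ccl17, the other Ccr4 ligand, in the same cluster on chromosome 8 (chr8:94745590-94812036), had 3, 6 and 12 counts in SDS libraries 1, 2 and 3 and 8, 4, 1, 9 and 3 in control libraries 1 to 5. These counts overlapped and were below the filter. Ccr4 had 11, 9 and 0 counts in SDS libraries 1, 2 and 3 and 1, 0, 0, 0 and 0 in control libraries 1 to 5. Ccr8, the receptor of mouse Ccl8, had 5, 5 and 5 counts in SDS libraries 1, 2 and 3 and 3, 1, 0, 0 and 0 in control libraries 1 to 5. The SDS libraries were above every control in CPM for Ccr8, at counts too low for the filter (without a filter, edgeR adjusted p = 0.271 for Ccr8 and 0.109 for Ccr4). Of the type 2 cytokines, Il4 measured 0.982, 0.878 and 0.542 CPM in SDS libraries 1, 2 and 3, against 0.717, 0.915, 1.07, 1.05 and 0.992 CPM in control libraries 1 to 5 and Il13 had 0 counts in every library.

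For the interferon-induced ligands of Cxcr3 the groups overlapped. Cxcl10 measured 2.95, 2.21 and 0.0834 CPM in SDS libraries 1, 2 and 3, against 0.887, 0.674, 0.628, 2.84 and 0.992 CPM in control libraries 1 to 5. SDS library 3 was the lowest of all and control 4 nearly reached SDS library 1 (log2 0.53 ± 0.83 (SE), edgeR adjusted p = 0.786). Without control 4 the estimate was 1.14 and without SDS library 1 it was -0.06. The counted exons of Cxcl10 share 133 bases with Art3 on the opposite strand, and the strand setting of the counting is not given in the sources used here, so the division of these reads is uncertain. Cxcl9 had 23, 10 and 9 counts in SDS libraries 1, 2 and 3 and 9, 1, 0, 101 and 8 in control libraries 1 to 5, of which control 4 held the most. Cxcl11 had 2, 4 and 1 counts in SDS libraries 1, 2 and 3 and 5, 0, 1, 17 and 2 in control libraries 1 to 5. Their receptor Cxcr3, of activated T cells, had 7, 33 and 2 counts in SDS libraries 1, 2 and 3 and 9, 3, 1, 9 and 3 in control libraries 1 to 5. The inducer Ifng had 1, 0 and 1 counts in SDS libraries 1, 2 and 3 and 1, 0, 0, 0 and 0 in control libraries 1 to 5.

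Cxcr6 and its ligand Cxcl16 were higher in SDS libraries 1 and 2 than in every control. Cxcr6 (ENSMUSG00000048521, chr9:123806475-123811760), a receptor of tissue-resident T cells and innate lymphoid cells, measured 7.94, 6.29 and 0.292 CPM in SDS libraries 1, 2 and 3, against 0.375, 0.337, 0.258, 0.541 and 0.153 CPM in control libraries 1 to 5. SDS libraries 1 and 2 held 202 and 179 counts, SDS library 3 held 7, and the controls held 4 to 16. The log2 fold change was 3.84 ± 0.82 (SE) and did not pass (edgeR adjusted p = 0.0614); without SDS library 3 it was 4.39 with an adjusted p of 0.000838. Cxcl16, a membrane-bound ligand that Adam10 can shed, measured 15.9, 19.3 and 3.75 CPM in SDS libraries 1, 2 and 3, against 4.78, 4.33, 6.54, 5.47 and 4.46 CPM in control libraries 1 to 5. SDS library 3 was the lowest of all libraries (log2 1.34 ± 0.43 (SE), edgeR adjusted p = 0.147; without SDS library 3 log2 1.79, adjusted p = 0.00254). Cxcl16 shares 552 exon bases with Zmynd15 on the opposite strand. Il17a, a cytokine of Cxcr6-bearing T cells and an inducer of Cxcl1 and Cxcl5, had 61, 55 and 0 counts in SDS libraries 1, 2 and 3 and 0, 0, 0, 1 and 0 in control libraries 1 to 5. The 8 T cell markers summed to 17.7, 18.3 and 3.13 CPM in SDS libraries 1, 2 and 3 and reached 3.99 CPM at most among controls; the T cell receptor component Cd3g measured 5.50, 3.83 and 0.0417 CPM in SDS libraries 1, 2 and 3, against 0.171, 0.241, 0, 0.7097 and 0.0763 CPM in control libraries 1 to 5. The part of T cells in the Cxcr6 values was not tested.

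Of the 8 epithelial ligands and their receptors 6 were tested and 0 passed; their median log2 fold change was 0.10. Ccl25, which guides T cells to the gut through Ccr9, measured 3.10, 2.74 and 3.75 CPM in SDS libraries 1, 2 and 3, against 3.58, 2.46, 2.88, 3.04 and 3.36 CPM in control libraries 1 to 5 (log2 0.06 ± 0.20 (SE)). Ccl27a, the skin ligand of Ccr10, measured 5.03, 2.6 and 3.84 CPM in SDS libraries 1, 2 and 3, against 5.53, 4.43, 3.69, 6.29 and 4.81 CPM in control libraries 1 to 5 (log2 -0.37 ± 0.26 (SE), edgeR adjusted p = 0.496). Of 50-base words in Ccl27a transcripts 45% also occur in other genes, so its reads may have been divided or dropped in counting. Ccl28, the mucosal ligand of Ccr10, had 9, 24 and 8 counts in SDS libraries 1, 2 and 3 and 23, 5, 5, 19 and 12 in control libraries 1 to 5 (log2 0.14 ± 0.54 (SE)). Cxcl14, made by keratinocytes and fibroblasts, measured 2.40, 4.39 and 0.709 CPM in SDS libraries 1, 2 and 3, against 1.77, 1.49, 1.48, 2.67 and 2.59 CPM in control libraries 1 to 5. SDS library 3 was the lowest and SDS library 2 the highest (log2 0.32 ± 0.50 (SE)). Ccl20, the ligand of Ccr6 that barrier epithelium makes when stimulated, had 5, 4 and 1 counts in SDS libraries 1, 2 and 3 and 0, 0, 0, 0 and 2 in control libraries 1 to 5. Ccr10 measured 1.57, 1.12 and 0.792 CPM in SDS libraries 1, 2 and 3, against 1.64, 1.06, 1.14, 1.59 and 1.49 CPM in control libraries 1 to 5 (log2 -0.25 ± 0.29 (SE)).

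Ccr6, a receptor of interleukin 17-producing T cells, B cells and dendritic cells, had 25, 21 and 2 counts in SDS libraries 1, 2 and 3 and 1, 2, 0, 2 and 0 in control libraries 1 to 5. It was below the filter with all libraries (without a filter, edgeR adjusted p = 0.0594) and passed without SDS library 3 (log2 4.35, adjusted p = 0.0122). Ccr9 measured 2.36, 3.34 and 4.21 CPM in SDS libraries 1, 2 and 3, against 1.47, 1.83, 2.73, 1.08 and 2.44 CPM in control libraries 1 to 5. SDS library 3 was the highest of all, SDS library 1 lay within the control range, and the estimate was 0.79 ± 0.34 (SE) (edgeR adjusted p = 0.254). This order differed from that of most receptors. Ccr9 shares 1932 exon bases with the opposite-strand gene AC165425.1 and 269 with Gm17200 on its own strand.

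The receptors nearest to the threshold were Ccr7 and Cxcr4. Ccr7 (ENSMUSG00000037944, chr11:99144196-99155077, minus strand), which leads dendritic cells and naive T cells to lymph nodes, measured 2.04, 4.99 and 0.459 CPM in SDS libraries 1, 2 and 3, against 0.273, 0.0481, 0.148, 0.237 and 0.0763 CPM in control libraries 1 to 5. These values rest on 52, 142 and 11 counts in SDS libraries 1, 2 and 3 and 8, 1, 4, 7 and 2 in control libraries 1 to 5. Every SDS library was above every control, with SDS library 3 nearest to them. The log2 fold change was 3.92 ± 0.74 (SE) and did not pass (edgeR quasi-likelihood adjusted p = 0.0507); scaling by relative log expression (0.0487), no filter (0.0359) or estimation that was not robust (0.0480) brought the adjusted p below the threshold, as did DESeq2 (7.6e-05) and limma-voom with quality weights (0.00883), and without SDS library 3 it was 0.00459 (log2 4.42). Limma-voom without weights did not (0.112), and without SDS library 2 the estimate was 2.92. Cxcr4 (ENSMUSG00000045382, chr1:128588199-128592293, minus strand), the receptor of Cxcl12 on most leukocytes, measured 10.22, 15.6 and 2.54 CPM in SDS libraries 1, 2 and 3, against 1.23, 1.78, 0.960, 1.72 and 2.21 CPM in control libraries 1 to 5. It too lay above every control in each SDS library (log2 2.58 ± 0.51 (SE), edgeR adjusted p = 0.0538; without SDS library 3 log2 3.04, adjusted p = 0.00254). Cxcr4 was also called with no filter, by DESeq2 and with quality weights. The 8 dendritic and Langerhans cell markers summed to 70.6, 85.8 and 63.5 CPM in SDS libraries 1, 2 and 3 and ranged from 40.6 to 56.4 CPM in the controls. Epcam, which epithelium also expresses, made up the largest part of each sum. Zbtb46 of that list measured 4.13, 4.15 and 1.96 CPM in SDS libraries 1, 2 and 3, against 4.27, 3.61, 2.81, 7.30 and 4.31 CPM in control libraries 1 to 5, and Cd209a measured 4.40, 9.73 and 2.09 CPM in SDS libraries 1, 2 and 3, against 5.26, 1.78, 2.47, 3.48 and 3.74 CPM in control libraries 1 to 5; for both the groups overlapped. Others were Itgax, which measured 14.6, 17.6 and 3.46 CPM in SDS libraries 1, 2 and 3, against 3.17, 1.88, 1.74, 3.89 and 4.69 CPM in control libraries 1 to 5, Flt3, which measured 5.27, 10.19 and 0.459 CPM in SDS libraries 1, 2 and 3, against 0.614, 0.289, 0.886, 0.777 and 0.648 CPM in control libraries 1 to 5, and the Langerhans cell lectin Cd207, which measured 10.4, 5.94 and 4.13 CPM in SDS libraries 1, 2 and 3, against 0.580, 0.193, 0.554, 0.473 and 0.992 CPM in control libraries 1 to 5. Their part in the Ccr7 values was not tested.

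Of the 6 homeostatic genes 5 were tested, and the ranges of the groups did not overlap for Ccr7 and Cxcr4 only (6.49% of all genes were higher in this way and 6.89% lower). Ccr7 reached the filter only with SDS libraries. Ccl19, a ligand of Ccr7, had 0 counts in each SDS library and 2, 0, 0, 2 and 1 in control libraries 1 to 5. Of 50-base words in its transcripts 52% occur in other genes, so its level in these tables is uncertain. Cxcl12, made by fibroblasts and endothelium, measured 28.6, 31.6 and 10.9 CPM in SDS libraries 1, 2 and 3, against 41.3, 19.7, 17.7, 54.0 and 26.8 CPM in control libraries 1 to 5. SDS library 3 was the lowest and control 4 the highest (log2 -0.43 ± 0.45 (SE), edgeR adjusted p = 0.668). Control 4 was also the highest control for blood endothelial markers (219 CPM over 5 genes, against 105 to 173 CPM in the other controls). Cxcl13, which attracts B cells, measured 3.73, 2.32 and 2.71 CPM in SDS libraries 1, 2 and 3, against 2.59, 1.59, 0.369, 1.55 and 1.33 CPM in control libraries 1 to 5. SDS library 1 was the highest, SDS library 2 was below control 1, and the estimate was 0.97 ± 0.48 (SE) (edgeR adjusted p = 0.326). Cxcr5, its receptor on B cells, measured 1.10, 0.949 and 2.00 CPM in SDS libraries 1, 2 and 3, against 1.57, 1.49, 0.886, 1.49 and 1.72 CPM in control libraries 1 to 5. The highest value was in SDS library 3, and SDS libraries 1 and 2 were below 4 of the 5 controls (log2 -0.09 ± 0.33 (SE)). The B cell and plasma cell markers summed to 4.24, 7.52 and 12.3 CPM in SDS libraries 1, 2 and 3 and to at most 4.00 CPM in a control, so SDS library 3 was also their highest.

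Of the atypical receptors, Ackr1, which carries chemokines across venules, measured 5.19, 5.80 and 1.13 CPM in SDS libraries 1, 2 and 3, against 3.04, 2.17, 1.66, 2.91 and 2.63 CPM in control libraries 1 to 5. All controls lay below SDS libraries 1 and 2, and SDS library 3 was below them (log2 0.70 ± 0.46 (SE), edgeR adjusted p = 0.468; without SDS library 3 log2 1.15, adjusted p = 0.0383). It shares 361 exon bases, 25.7% of its own, with Cadm3 on the same strand. Ackr2, a scavenger of inflammatory CC chemokines, measured 3.46, 5.31 and 3.00 CPM in SDS libraries 1, 2 and 3, against 5.91, 5.01, 4.62, 5.91 and 6.29 CPM in control libraries 1 to 5. SDS libraries 1 and 3 were below every control, and the estimate was -0.50 ± 0.23 (SE) (edgeR adjusted p = 0.284). Ackr3, the Cxcl12 scavenger, measured 45.2, 59.9 and 34.7 CPM in SDS libraries 1, 2 and 3, against 49.02, 41.4, 47.8, 59.9 and 50.8 CPM in control libraries 1 to 5, and the groups overlapped (log2 -0.09 ± 0.18 (SE)). Ackr4, which scavenges the ligands of Ccr7 and Ccr9, measured 34.9, 28.7 and 16.1 CPM in SDS libraries 1, 2 and 3, against 28.3, 26.0, 19.3, 20.8 and 25.9 CPM in control libraries 1 to 5 (log2 0.14 ± 0.24 (SE)). It shares 479 exon bases with Acad11 on the opposite strand.

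Other genes of the pathway were read from the same fit. Of 61, 47 were tested, 1 was called higher (0.623% of all genes) and 0 lower (0.425% of all genes). DESeq2 called 15 higher (5.00% of all genes), and without SDS library 3 there were 18 (4.98% of all genes). The called gene was Nfkbiz, a nuclear regulator of NF-kB that interleukin 17 and interleukin 1 induce, which measured 108, 115 and 91.1 CPM in SDS libraries 1, 2 and 3, against 30.3, 42.3, 56.9, 26.0 and 48.2 CPM in control libraries 1 to 5. Every SDS library, SDS library 3 included, was above every control (log2 1.36 ± 0.24 (SE), edgeR adjusted p = 0.0470). The call was lost with limma-voom and in 6 of the 8 fits without 1 library, with log2 fold changes between 1.28 and 1.51. The inducing cytokine Il1b measured 10.7, 12.7 and 0.876 CPM in SDS libraries 1, 2 and 3, against 0.512, 0.626, 0.739, 1.76 and 1.03 CPM in control libraries 1 to 5, high in SDS libraries 1 and 2 (log2 3.10 ± 0.72 (SE), edgeR adjusted p = 0.0769; without SDS library 3 log2 3.64, adjusted p = 0.00319). The Tnf estimate was 1.23 ± 1.27 (SE) (log2) with all libraries, 0.30 without SDS library 1, 1.85 without control 4 and 2.98 with quality weights; that of Il4 was -0.24 ± 0.28 (SE). Of 25 receptor signalling and desensitization genes, of which 25 were tested, 0 passed, and the median log2 fold change was 0.36. Estimates were above 0 for 22 of the 25 (49.3% of all genes). An unadjusted edgeR p under 0.05 was reached by 12, all higher in SDS (9.98% of all genes), and by 0 with lower estimates (8.53%). Rgs1, among the 12, had only 5 to 17 counts in the controls, near the filter's minimum. Of 6 genes that process chemokines 4 were tested and 0 passed, among them the sheddase Adam17, which measured 62.5, 79.3 and 63.4 CPM in SDS libraries 1, 2 and 3, against 45.5, 47.5, 51.2, 45.9 and 49.2 CPM in control libraries 1 to 5 (log2 0.52 ± 0.10 (SE), edgeR adjusted p = 0.0546). Of the 11 further chemokines and receptors 4 were tested and 0 passed, and all 3 genes of the chemerin axis were tested and 0 passed.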

How the data were processed

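RNA from whole mouse esophagus was sequenced in 3 SDS and 5 control libraries. The deposited values are whole-number counts of reads per gene, which the authors made with STAR 2.6.1c and Subread on mm10, with FastQC and bcl2fastq also named, per the submitters' processing notes. For the Subread version, annotation release and strand setting: not given in the sources used here. The labels' extract protocol speaks of cell pellets and the treatment text of whole esophagus homogenates.

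Gene symbols were matched to 48970 of 49315 identifiers. Of all identifiers, 17179 passed edgeR's filterByExpr with a minimum count of 10 and a minimum total of 15. TMM scaled the library sizes. The groups were compared with edgeR 4.0.16 (R 4.3.3) by a robust two-sided quasi-likelihood test with Benjamini-Hochberg adjustment over all genes tested and a threshold of 0.05. Standard errors are the log2 fold change over the square root of F. DESeq2 1.42.0 and limma-voom 3.58.1, other scalings and filters, and fits without 1 library each were run as alternatives. CPM and TPM were computed from the counts, TPM with the deposited gene lengths. The limit that 0 allows is 3 counts and covers counting error only. The fits were tested on simulated data with known changes. The 49 members and the gene lists were chosen with earlier results of these data known. All 49 are accounted for: members with a mean of at least 1 CPM in either group, or with groups that did not overlap, are given per library, and members below the filter as counts. Promoters are from RefSeq (GRCm38.p6). Library pairs within a group differed by more than sampling noise, with a lowest chi-square per degree of freedom of 23.1.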

Additional observations from a re-analysis of the deposited data

Results flagged for a closer look

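Of 49 genes examined, 4 had 1 control far from the other 4. With 49 genes examined some such cases can arise by chance, and how many was not tested. Cxcl9 measured 3.41 CPM in control 4 (101 counts), against at most 0.307 CPM in the other controls. Cxcl10 measured 2.84 CPM in control 4 (84 counts), against 0.628 to 0.992 CPM in the others. Both are interferon-induced ligands of Cxcr3. Cxcr5 measured 0.886 CPM in control 3 (24 counts), against 1.49 to 1.72 CPM in the others. Ccr4 measured 0.0341 CPM in control 1, which rests on 1 count, and 0 in the others.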

How the results depend on the processing

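The number of members called higher in SDS was 0 with all libraries, 1 with relative log expression scaling, 1 without robust estimation, 2 with no filter, 9 with DESeq2 and 10 with limma-voom and quality weights, which also called 1 lower. Over all genes the higher calls in these settings numbered 107, 121, 124, 159, 859 and 1131, in that order. They were out of 17179 genes tested, or 31365 with no filter. Leaving out 1 library gave 0 to 14 higher calls, the 14 without SDS library 3. Over all genes these fits gave 4 to 879 higher calls, the 879 also without SDS library 3. Pathway genes called higher numbered 1, and 15 with DESeq2, 0 with limma-voom, 19 with quality weights and 0 to 18 with 1 library left out. Of 36 members 22 kept their sign in every setting that gave a value and 14 did not; 29 had values in all 18 settings and 7 in fewer, at least 14. With limma-voom Cxcl1 was -0.035 and Cxcl10 -0.19 (log2). With quality weights Ccl11 was 0.12, Ccl25 -0.023, Ccr10 0.0074, Cxcl12 0.011 and Il4 0.0016. With 1 library left out, Cxcl1 ranged from -0.44 to 0.44, Ccl2 from -0.43 to 0.95, Ccl7 from -0.78 to 1.18, Cx3cl1 from -0.15 to 0.051, Cxcl10 from -0.060 to 1.14, Ccl25 from -0.065 to 0.16, Ccl28 from -0.44 to 0.42, Cxcl14 from -0.36 to 0.77, Cxcr5 from -0.48 to 0.12, Ackr3 from -0.32 to 0.088 and Ackr4 from -0.10 to 0.41. The cause was not tested. Same-numbered SDS and control libraries deviated with correlations of 0.443, -0.0051 and 0.251. SDS libraries 1 and 3 each correlated best with their own number, and SDS library 2 correlated with none of them (at most 0.0107). Deviations from the mean of 3 libraries cannot decide whether the numbers pair them, and the main fit used no pairing. The replicate block on libraries 1 to 3 called 0 members and 0 pathway genes, as did the same libraries with no block, a setting chosen after seeing the data. Over all 16760 genes tested there, 0 were called higher with the block and 2 without it. Cx3cl1 was 0.026 with the block, and without it Cx3cl1 was 0.037, Cxcr5 0.033 and Ackr3 0.017. On those 6 libraries Cxcl2 was 5.21 with the block and 5.56 without it, Ccl3 2.68 and 3.19, and Tnf 3.82 and 4.34. Low counts left 13 members out of the test.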
